A study of Mus musculus with 48 samples.

Results

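The genes described here are 10 transcripts of tissue residency and of the integrins that hold lymphocytes in tissue, given as a list of symbols: Itgae, Itga1, Itga4, Itgb1, Itgb7, Cd69, Cxcr6, Zfp683, Prdm1 and Rgs1. This list and the related lists below were chosen with earlier results of these data known. The shares of all genes set beside their counts are therefore a description. All 10 were found among the 34932 genes of the annotation. They were followed in 48 RNA-seq libraries, 4 from each of 12 groups, made from C57BL/6J mice that carried B16F10 melanoma, a transplantable mouse tumor line grown under the skin. T cells of the CD4+ and CD8+ lineages, and the remaining leukocytes as CD45+ CD4-CD8- cells, were sorted from the tumors (tumor-infiltrating cells, TILs) and from the tumor-draining inguinal lymph nodes (TDLNs). In Yap-cKO mice, loxP-flanked Yap was deleted by Cre under the Cd4 promoter, which acts in T cells of both lineages, and a Cre-dependent EYFP reporter was carried. WT mice were the littermate controls, young adults like the Yap-cKO mice. Most CD45+ CD4-CD8- cells are of lineages in which this promoter is not known to drive Cre.

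Memory T cells that stay in a tissue differ from those that recirculate in how they hold on and in how they respond to exit signals. The αE chain CD103 (Itgae) pairs with β7 (Itgb7) to bind E-cadherin on epithelium, α1 (CD49a, Itga1) pairs with β1 (Itgb1) to bind collagen, and α4 (CD49d, Itga4) pairs with β1 to bind VCAM-1 and fibronectin or with β7 to bind MAdCAM-1 of gut vessels. CD69 removes the egress receptor S1PR1 from the cell surface and is also an early activation marker, while Rgs1 dampens signals of chemokine receptors. CXCR6 binds CXCL16 held on cells of the tissue, and the transcription factors Hobit (Zfp683) and Blimp-1 (Prdm1) together repress genes of egress in mouse resident lymphocytes.

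Libraries held 12656302 to 24213689 counts on genes. Levels are given as CPM, that is, counts set against the library's total after TMM scaling over all 48 libraries, and 3 counts amount to 0.124 to 0.237 CPM depending on the library. Cd4 was at 104 to 1062 CPM in the CD4+ sorts and at most 49.1 CPM elsewhere, and Cd8a was at 218 to 1288 CPM in the CD8+ sorts and at most 10.8 CPM elsewhere. In the T cell TILs, Yap1 was at 13.0 to 27.3 CPM in WT and at 1.63 to 6.37 CPM in Yap-cKO libraries. It did not overlap in CD45+ CD4-CD8- TILs either (2.74 to 5.32 CPM in WT and 1.52 to 2.03 CPM in Yap-cKO libraries), and it overlapped in T cells of TDLNs (1.26 to 2.59 and 1.13 to 4.52 CPM). In tumors Yap1 ran with the melanoma marker sums given next, whose part in it was not tested, so Yap1 alone does not check the genotype labels in either tissue. The TIL libraries were not pure T cells. The sum of 8 melanoma markers was 6342 to 19733 CPM in WT CD4+ TILs against 231 to 2782 CPM in Yap-cKO CD4+ TILs, and 4238 to 15435 CPM against 78.3 to 2841 CPM in CD8+ TILs, while every T cell library of a node was under 20 CPM. The sum of 15 T lineage genes ran the other way, at 2049 to 7735 CPM in WT libraries and 8014 to 12786 CPM in Yap-cKO CD4+ TILs and at 2391 to 6664 CPM and 7413 to 8336 CPM in CD8+ TILs. In both TIL populations neither sum overlapped between genotypes (two-sided p = 0.0286 by an exact permutation test, which cannot go lower with 4 libraries a side). Melanoma markers in CD45+ CD4-CD8- TILs were also lower in Yap-cKO mice (328 to 869.9 CPM against 1295 to 2089 CPM). CD45+ CD4-CD8- cells of nodes were dominated by B cell markers (summed 8600.2 to 10196 CPM in WT) and those of tumors by macrophage and monocyte markers (23588 to 36503 CPM in WT), so a change between these tissues is also a change of cell type. The sum of 4 Y-linked genes was at most 19.0 CPM in 30 libraries and 43.3 to 423 CPM in the remaining 18, which are all of WT replicates 1, 2 and 3, so this signal ran with genotype in all but WT replicate 4, and their parts cannot be told apart outside it. In bulk libraries, fewer cells of a type and less RNA per cell cannot be told apart.

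**Figure D1:**
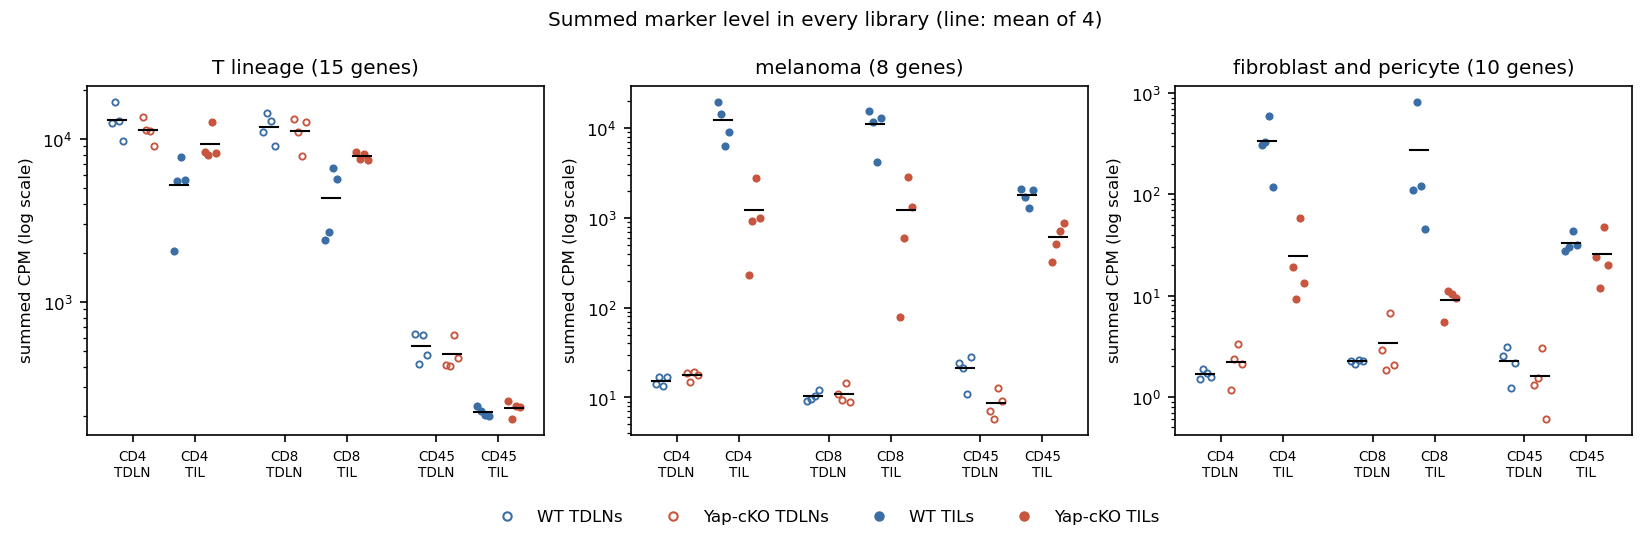
Summed CPM (log scale) of the T lineage, melanoma, and fibroblast and pericyte marker lists in each of the 48 libraries, by sorted population and tissue; open points are TDLNs, filled points TILs, and lines are means of 4. WT TILs hold the most melanoma signal (6342 to 19733 CPM in CD4+ TILs) and less T lineage signal than Yap-cKO TILs.

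Promoter windows are shown for Itga1 and Itgb1, called higher in tumor than in node in all 6 comparisons, for Cxcr6, called higher in the 4 of T cells, and, as the contrast, for Itgb7, called lower in 3 of those 4 (in WT CD4+ cells not under every setting). RefSeq (GRCm38.p6) gave a window for 6 members: Itga1, Itga4, Itgb1, Itgb7, Cxcr6 and Prdm1. Itgae, Cd69, Zfp683 and Rgs1 had no entry. Each window is the 250 bases before the RefSeq start site, 5′ to 3′ on the gene's strand. Capitals mark the letters GGAATG, as read by TEAD factors, the DNA-binding partners of Yap, or TGTGGT, as read by RUNX factors, on either strand (reverse complements CATTCC and ACCACA).
Itga1, chr13:115101965-115102214, minus strand: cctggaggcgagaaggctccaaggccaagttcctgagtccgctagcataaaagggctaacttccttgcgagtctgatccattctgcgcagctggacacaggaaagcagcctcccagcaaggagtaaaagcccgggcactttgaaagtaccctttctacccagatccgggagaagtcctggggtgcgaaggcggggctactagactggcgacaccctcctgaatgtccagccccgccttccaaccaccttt
Itgb1, chr8:128685404-128685653, plus strand: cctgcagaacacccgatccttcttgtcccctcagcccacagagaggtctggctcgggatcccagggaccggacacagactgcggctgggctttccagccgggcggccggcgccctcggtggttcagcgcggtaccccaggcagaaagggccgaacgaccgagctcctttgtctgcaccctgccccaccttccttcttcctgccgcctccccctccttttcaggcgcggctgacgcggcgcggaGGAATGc
Cxcr6, chr9:123806227-123806476, plus strand: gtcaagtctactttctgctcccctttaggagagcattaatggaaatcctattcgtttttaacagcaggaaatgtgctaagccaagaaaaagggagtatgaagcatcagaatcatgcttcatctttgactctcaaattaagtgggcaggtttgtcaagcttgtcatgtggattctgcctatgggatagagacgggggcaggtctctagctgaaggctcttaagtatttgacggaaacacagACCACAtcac
Itgb7, chr15:102231936-102232185, minus strand: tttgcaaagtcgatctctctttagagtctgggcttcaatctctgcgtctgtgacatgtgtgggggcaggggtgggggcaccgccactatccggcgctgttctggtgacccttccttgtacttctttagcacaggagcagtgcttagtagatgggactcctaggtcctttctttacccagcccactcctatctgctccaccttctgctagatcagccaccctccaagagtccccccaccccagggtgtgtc
The Itgb1 window holds GGAATG from base 7 to base 2 before the start site, and the Cxcr6 window holds the RUNX letters on its reverse strand from base 10 to base 5. Among the 6 windows, GGAATG was found in 1 and TGTGGT in 2, the second being Itga4 (bases 60 to 55 before its start). Among 32817 windows of this length, 12.6% hold the first motif and 14.0% the second. Neither motif is in the Itga1 or Itgb7 window.

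CD103 (Itgae, chr11:73090583-73147446, plus strand, GRCm38) was highest in CD8+ T cells of the nodes. The WT CD8+ TDLN libraries held 191, 271, 159.7 and 187 CPM and the Yap-cKO ones 435, 238, 210.4 and 282 CPM. All 8 lay above every other library of the series, and they did not differ beyond their spread from each other. CD4+ TDLN libraries held 59.1, 96.3, 76.5 and 70.9 CPM in WT libraries and 71, 80.8, 32.5 and 25.4 CPM in Yap-cKO mice. In WT tumors Itgae fell in both T cell lineages. WT CD8+ TILs held 3.82, 6.66, 17.7 and 10.9 CPM, with a log2 fold change against TDLNs of -4.33 ± 0.45 (SE, adjusted p = 2.64e-05). WT CD4+ TILs held 7.49, 24.1, 26.5 and 18.1 CPM, with a log2 fold change of -1.98 ± 0.35 (adjusted p = 0.000714). In neither lineage did the WT libraries of tumor and node overlap. Values in brackets after a pair of groups are, from here on, the log2 fold change ± SE and the Benjamini-Hochberg adjusted p of edgeR's quasi-likelihood test, and a gene is said to rise, fall or be called where that p is under 0.05 and the log2 fold change is beyond 1 in size.

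In Yap-cKO mice the fall was called in CD8+ T cells and not in CD4+ T cells. Yap-cKO CD8+ TILs held 68.4, 26.7, 31.5 and 18.2 CPM, below every Yap-cKO CD8+ node library, with a log2 fold change of -2.95 ± 0.39 (adjusted p = 0.00058). Yap-cKO CD4+ TILs held 140.4, 66.8, 40.8 and 57.1 CPM, overlapping their node counterparts, with a log2 fold change of 0.56 ± 0.49 (adjusted p = 0.447). The tissue by genotype interaction in CD4+ cells was 2.62 ± 0.62 (adjusted p = 0.0479), and Itgae was the only member past the thresholds there, in a test that called 1.36% of 15087 genes. The call was lost without any of 12 of the 16 libraries, all but Yap-cKO CD4+ TDLN replicates 1 and 2, Yap-cKO CD4+ TIL replicate 3 and WT CD4+ TIL replicate 3, with log2 values from 2.19 to 2.73 and adjusted p up to 0.106. It was also lost when libraries were scaled on the T lineage genes (1.65, adjusted p = 0.0697). In CD8+ cells the interaction was 1.34 (adjusted p = 0.284) and in CD45+ CD4-CD8- cells 1.71 (adjusted p = 0.47). edgeR called 0 members in either, where it called 0.422% and 0% of all genes, and 2 and 4 members had an unadjusted p under 0.05. DESeq2 called 0 members there.

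Itgb7 (chr15:102215995-102231944, minus strand), the partner of αE, was the most abundant of the 5 integrin chains in node T cells per transcript length, at 733 ± 212 TPM in WT CD4+ and 669.7 ± 177 TPM in WT CD8+ cells, against 27.7 ± 4.59 TPM and 67 ± 19 TPM for Itgae. In CD8+ cells it fell together with its partner in both genotypes. WT CD8+ libraries held 1158, 1869, 1543 and 778 CPM in nodes and 70.3, 143, 336 and 275 CPM in tumors, without overlap (-2.68 ± 0.49, adjusted p = 0.00106). Yap-cKO CD8+ libraries held 1629.6, 1066, 719 and 1253 CPM in nodes and 549, 245, 404 and 371 CPM in tumors, also without overlap (-1.50 ± 0.29, adjusted p = 0.00466). In WT CD4+ cells the fall was smaller, from 1089.7, 1984, 1214 and 801 CPM to 202, 638, 782 and 601 CPM (-1.18 ± 0.40, adjusted p = 0.0306). That call was lost without WT CD4+ TDLN replicate 2 (-0.90, adjusted p = 0.0956) or WT CD4+ TIL replicate 1 (-0.84), 2 (-1.18, adjusted p = 0.0696) or 4 (-1.18, adjusted p = 0.0559). In Yap-cKO CD4+ cells the ranges overlapped, at 589.8 to 1552 CPM and 788 to 1738 CPM.

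**Figure D2:**
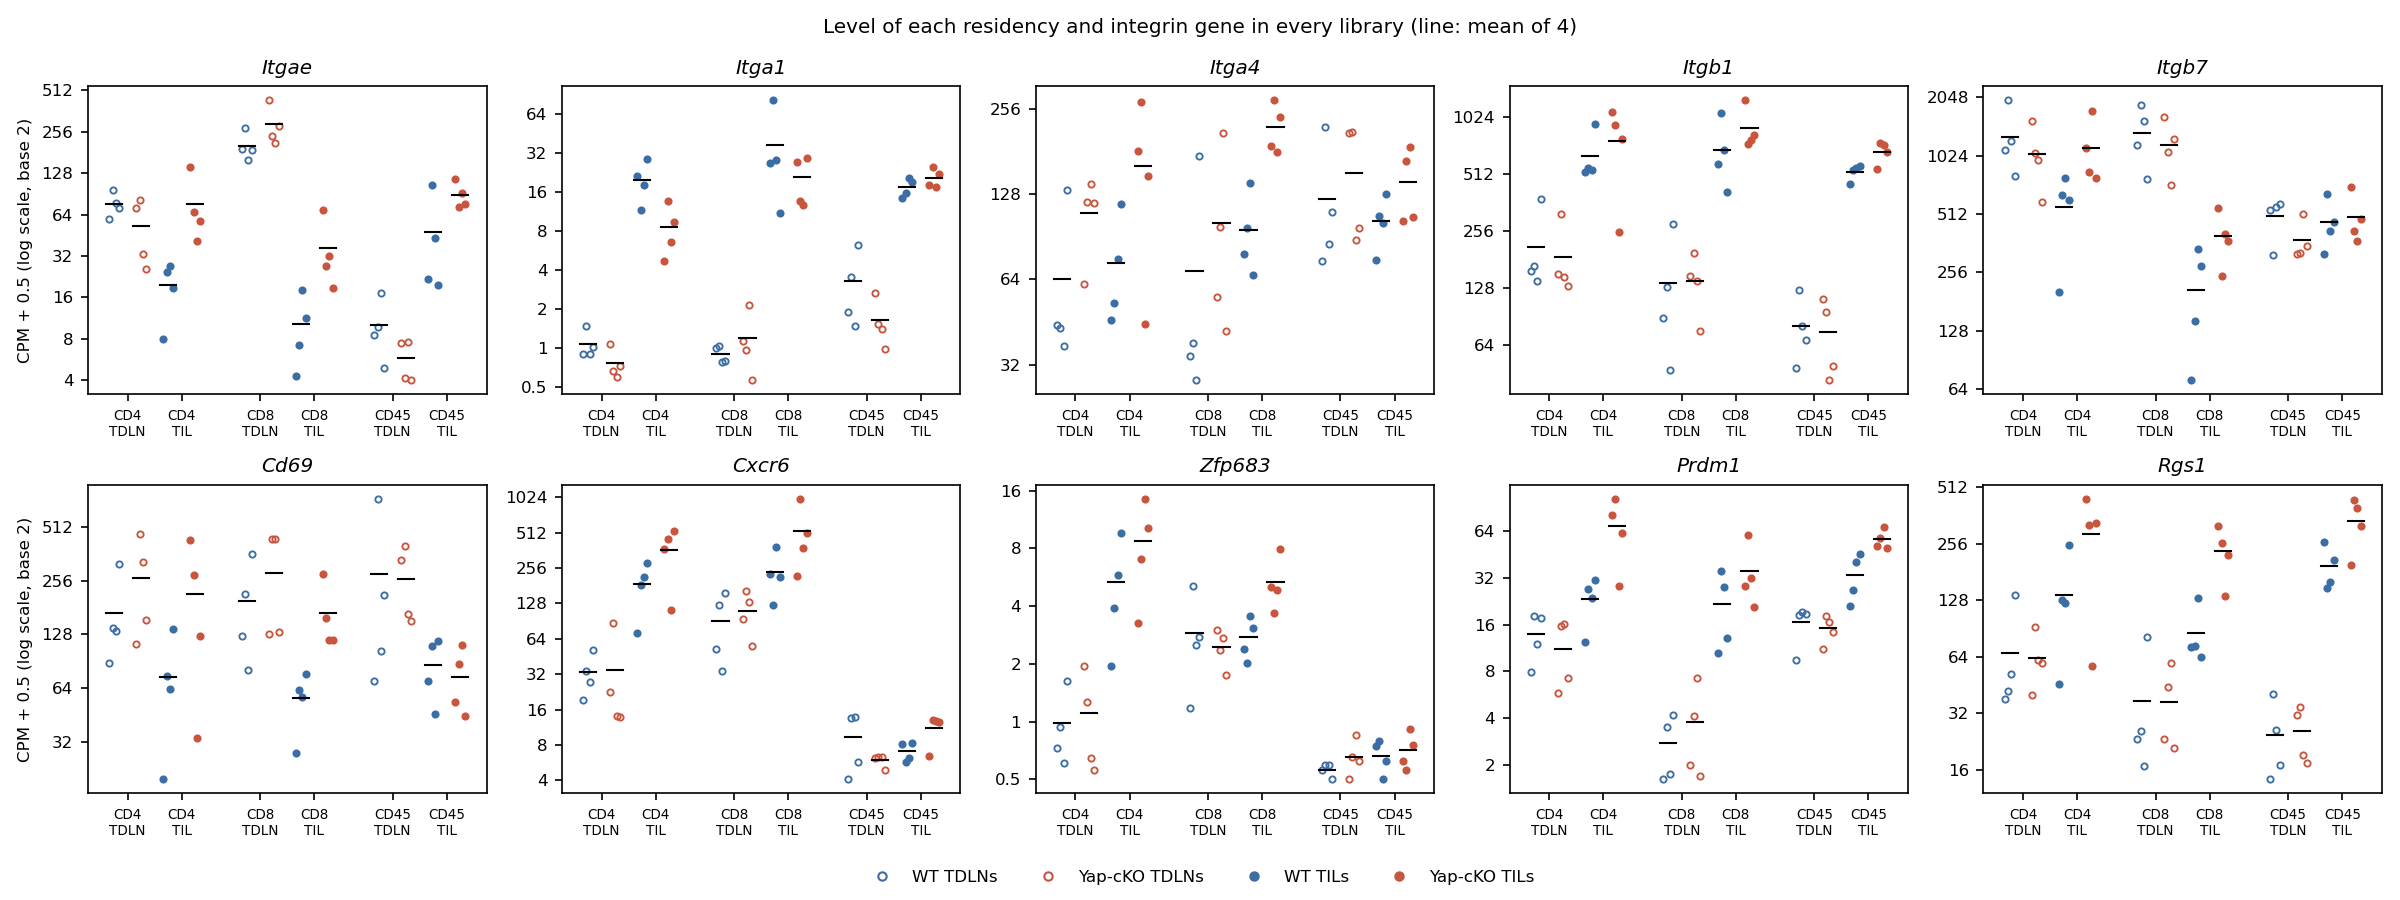
CPM + 0.5 (log scale, base 2) of the 10 genes in each of the 48 libraries, grouped by sorted population (CD45 stands for CD45+ CD4-CD8-) and tissue; blue is WT, red Yap-cKO, open points TDLNs, filled points TILs, lines means of 4. Itgae is highest in CD8+ TDLN libraries (160 to 435 CPM), while Itga1 is under 2 CPM in all T cell libraries of nodes.

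The collagen-binding integrin moved the opposite way. Itga1 (chr13:114953096-115101964, minus strand) was close to the detection floor in node T cells and rose in tumors in both lineages and both genotypes. WT CD8+ libraries held 0.493, 0.531, 0.279 and 0.289 CPM in nodes and 26.3, 81.1, 27.6 and 10.6 CPM in tumors (6.51 ± 0.68, adjusted p = 2.7e-05), and WT CD4+ libraries 0.402, 0.972, 0.391 and 0.511 CPM in nodes and 20.7, 11, 17.5 and 28.1 CPM in tumors (5.08 ± 0.46, adjusted p = 4.17e-06). The lowest tumor library of either lineage was several times the highest node library. Yap-cKO CD8+ libraries held 0.627, 0.465, 1.65 and 0.0623 CPM and 26.5, 13.1, 12.2 and 28.7 CPM (4.82 ± 0.70, adjusted p = 0.00102), and Yap-cKO CD4+ libraries 0.579, 0.165, 0.0968 and 0.228 CPM and 4.16, 13.1, 6 and 8.82 CPM (4.92 ± 0.65, adjusted p = 0.000692). Groups overlapped in none of these comparisons. Because 3 of the node libraries held 3 counts or fewer, the size of the fitted fold depends on the prior count. Exons of Itga1 overlap those of Gm49395 on the same strand, which was listed at 0 to 4.35 CPM over the 48 libraries, so its reads and those of Itga1 may be divided otherwise by another quantification.

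Its β chain rose as well. Itgb1 (chr8:128685654-128733200, plus strand) held 88.3, 129, 46.6 and 278 CPM in WT CD8+ nodes and 582, 1082, 685 and 411 CPM in WT CD8+ tumors (2.41 ± 0.50, adjusted p = 0.00251). In WT CD4+ cells it held 157, 167, 139 and 379 CPM in nodes and 523, 553, 538 and 943 CPM in tumors (1.61 ± 0.37, adjusted p = 0.00357). Every tumor library of either WT lineage lay above every node library. In Yap-cKO CD8+ cells it held 147, 194, 139 and 75 CPM in nodes and 1265, 743, 779 and 825 CPM in tumors (2.76 ± 0.31, adjusted p = 0.00023), and in Yap-cKO CD4+ cells 152, 316, 145 and 130.1 CPM and 1096, 937, 254 and 790.1 CPM (2.10 ± 0.48, adjusted p = 0.0114). Only the last pair of groups overlapped, through Yap-cKO CD4+ TIL replicate 3 at 254 CPM. Itgb1 is made by many cell types, tumor and stromal cells among them. Among CD8+ TILs its highest values were 1265 CPM in Yap-cKO replicate 1, the library with the least melanoma signal (78.3 CPM over the 8 markers), and 1082 CPM in WT replicate 2, the one with the most endothelial (1766 CPM) and fibroblast and pericyte signal (816.5 CPM), which also held the most Itga1 (81.1 CPM). The part of these cells in either gene was not tested.

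Itga4 (chr2:79255426-79333123, plus strand), the α chain that either β chain can join, passed the thresholds between tumor and node in none of the 6 comparisons. It was at 36.8 to 132 CPM in WT CD4+ nodes and 45.5 to 118 CPM in WT CD4+ tumors, and at 27.7 to 173 CPM and 65.6 to 139 CPM in the CD8+ cells. WT CD8+ TDLN replicate 4 stood alone at 173 CPM, and without it the difference was called at 1.53 (adjusted p = 0.00172). Without Yap-cKO CD8+ TDLN replicate 3 the Yap-cKO CD8+ difference was 1.88 (adjusted p = 0.00302), and it too was then called. With libraries scaled on the T lineage genes Itga4 rose in WT CD4+ (1.48, adjusted p = 0.0486) and WT CD8+ TILs (1.90, adjusted p = 0.0316), where 56.8% and 58.6% of all genes rose. Its exons overlap Cerkl on the opposite strand, listed at 0.488 to 5.17 CPM.

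Within a library these levels can be set against each other by transcript length, which no scaling between libraries can change. This measure was chosen after the values were seen and is given without a test. Of the summed TPM of both β chains, Itgb1 made up 10.8% ± 7.66 (SD, n = 4) in WT CD4+ nodes and 40.5% ± 13.2 in WT CD4+ tumors, and 7.67% ± 7.9 and 61.8% ± 18.8 in WT CD8+ cells. In Yap-cKO mice it made up 10.9% ± 4.41 and 28.7% ± 14.7 in CD4+ and 7.99% ± 3.74 and 55.2% ± 6.81 in CD8+ cells. The share was higher in every WT CD4+, WT CD8+ and Yap-cKO CD8+ tumor library than in any node library of the same cells and genotype, but 1 Yap-cKO CD4+ tumor library (6.92%) lay among the nodes. Of the 3 α chains, Itgae made up 81.9% ± 14.3 in WT CD8+ nodes and 8.46% ± 4.98 in WT CD8+ tumors, and 79.6% ± 14.5 and 14.6% ± 9.73 in Yap-cKO CD8+ cells. In CD4+ cells its share was 64.9% ± 14.7 in WT nodes and 19.5% ± 9.32 in WT tumors but 40.2% ± 20.3 and 35% ± 14.7 in Yap-cKO cells, where the libraries overlapped. These ratios still include whatever the tumor and stromal cells in a sort contribute, and that part was not tested.

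**Figure D3:**
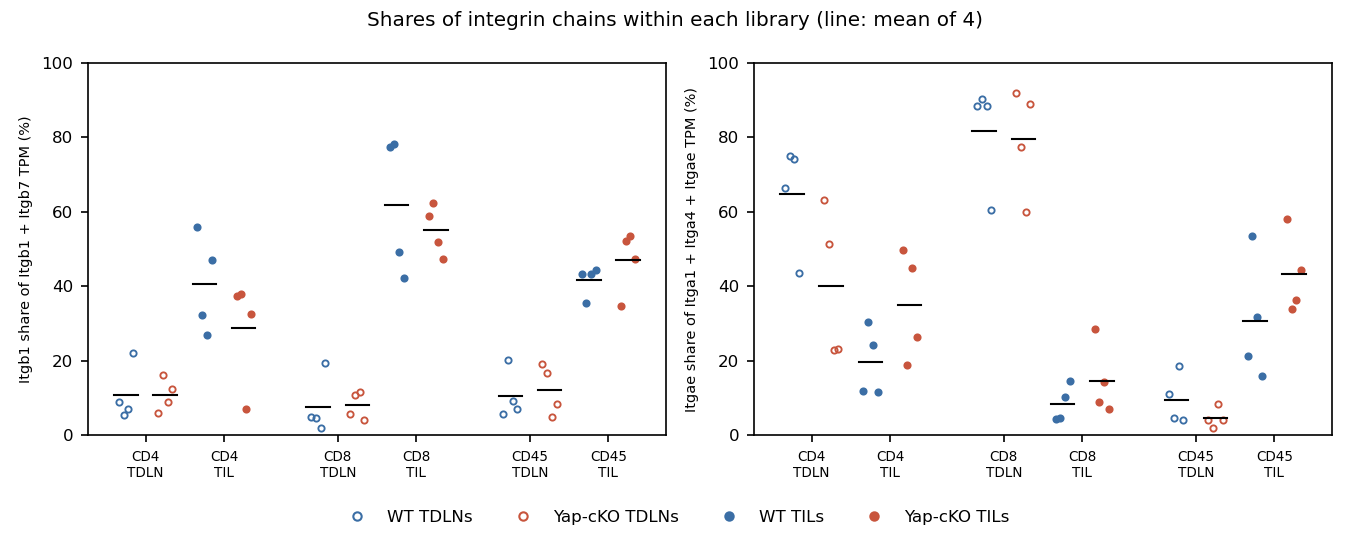
Share of Itgb1 in the summed TPM of Itgb1 and Itgb7 (left, %) and of Itgae in the summed TPM of Itga1, Itga4 and Itgae (right, %), in each of the 48 libraries; colors and fills as in the plot of CPM by library. In CD8+ cells the Itgb1 share lies under 20% in every node library and above 40% in every tumor library, and the Itgae share above 50% in nodes and under 30% in tumors.

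Cxcr6 (chr9:123806475-123811760, plus strand), the receptor for CXCL16, rose in the tumors in all 4 T cell comparisons. WT CD4+ libraries held 18.8, 33.3, 27.1 and 51.4 CPM in nodes and 71.2, 182, 216 and 284 CPM in tumors (2.55 ± 0.43, adjusted p = 0.000478), and Yap-cKO CD4+ libraries 22, 86.8, 13.8 and 13.3 CPM and 371, 454, 112 and 532 CPM (3.49 ± 0.72, adjusted p = 0.00668). The 8 Yap-cKO CD8+ libraries ranged over 54.8 to 165 CPM in nodes and 218 to 991 CPM in tumors (2.31 ± 0.48, adjusted p = 0.00722). Groups overlapped only in WT CD8+ cells, at 51.8, 124, 33.5 and 155 CPM in nodes and 228, 123, 384 and 214 CPM in tumors (1.45 ± 0.48, adjusted p = 0.0281), where the call was lost without WT CD8+ TDLN replicate 1 (1.25, adjusted p = 0.0822) or 3 (1.18, adjusted p = 0.0603) or WT CD8+ TIL replicate 3 (1.19, adjusted p = 0.0705) or 4 (1.49, adjusted p = 0.0548). All 8 T cell groups had a higher mean than the 4 CD45+ CD4-CD8- groups, whose libraries did not exceed 13.4 CPM, and 1 of the 32 T cell libraries (Yap-cKO CD4+ TDLN replicate 4, at 13.3 CPM) fell within their range.

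Zfp683 (Hobit, chr4:134053838-134058996, plus strand) was a low transcript throughout and rose in CD4+ TILs. It held 0.23, 0.438, 0.112 and 1.14 CPM in WT CD4+ nodes and 1.45, 3.44, 5.29 and 9.16 CPM in WT CD4+ tumors (3.35 ± 0.74, adjusted p = 0.00287), and 1.45, 0.768, 0.145 and 0.057 CPM and 2.76, 6.51, 14 and 9.74 CPM in Yap-cKO CD4+ cells (3.75 ± 0.84, adjusted p = 0.0102), without overlap in either genotype. WT CD8+ libraries ranged over 0.678 to 4.62 CPM in nodes and 1.51 to 3.07 CPM in tumors and did not pass the test. Yap-cKO CD8+ libraries held 2.51, 1.86, 2.24 and 1.25 CPM and 4.51, 3.19, 4.33 and 7.43 CPM (1.37 ± 0.43, adjusted p = 0.0438), a call kept without Yap-cKO CD8+ TDLN replicate 3 or TIL replicate 1 and lost without any of the other 6 (1.08 to 1.55, adjusted p up to 0.127). In CD45+ CD4-CD8- cells it was at or below 0.416 CPM in all 16 libraries and was not tested within a tissue or between tissues.

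Prdm1 (Blimp-1, chr10:44437177-44528501, minus strand) rose in CD8+ TILs of both genotypes. WT CD8+ libraries held 1.11, 2.98, 1.25 and 3.7 CPM in nodes and 9.99, 35, 27.3 and 12.6 CPM in tumors (3.27 ± 0.54, adjusted p = 0.000564), and Yap-cKO CD8+ libraries 1.48, 3.59, 6.76 and 1.18 CPM and 28.1, 59.6, 31.4 and 20.4 CPM (3.44 ± 0.58, adjusted p = 0.00235). In CD4+ cells the rise passed the test in Yap-cKO mice, from 5.27, 15.2, 15.6 and 6.72 CPM to 81.1, 103, 27.9 and 61.9 CPM (2.73 ± 0.49, adjusted p = 0.00352). WT CD4+ libraries ranged over 7.4 to 17.6 CPM in nodes and 11.9 to 30.4 CPM in tumors and did not pass, except without WT CD4+ TIL replicate 1 (1.08, adjusted p = 0.0226). The tissue by genotype interaction of Prdm1 in CD4+ cells was called only when Yap-cKO CD4+ TIL replicate 3 was left out (2.26, adjusted p = 0.0199).

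Rgs1 (chr1:144242296-144249242, minus strand) and Cd69 (chr6:129267325-129275436, minus strand), which mark both residency and recent stimulation, differed in direction. Rgs1 rose in Yap-cKO T cells, with 23, 43.7, 58.6 and 20.4 CPM in CD8+ nodes and 317, 258, 135 and 224 CPM in CD8+ tumors (2.71 ± 0.40, adjusted p = 0.00109). In CD4+ cells of these mice it was at 39.5, 91.6, 61.4 and 58.6 CPM in nodes and 443, 324, 56.7 and 331 CPM in tumors (2.26 ± 0.54, adjusted p = 0.014). In WT CD8+ cells it was at 22.9, 25.5, 16.2 and 81.7 CPM in nodes and 71.5, 73.1, 132 and 63.6 CPM in tumors (1.27 ± 0.47, adjusted p = 0.0447), with overlap, and the call was kept only without WT CD8+ TDLN replicate 4, the high node library (the other 7 fits gave 1.04 to 1.40, adjusted p up to 0.119). WT CD4+ libraries ranged over 37.9 to 137 CPM in nodes and 45.2 to 251 CPM in tumors and did not pass, except without WT CD4+ TDLN replicate 4 (1.65, adjusted p = 0.0101) or TIL replicate 1 (1.41, adjusted p = 0.0349). Cd69 rose in tumor T cells in no comparison. It fell in WT CD8+ cells, from 124, 216, 80.7 and 360.4 CPM to 27, 61.7, 56.6 and 76.4 CPM without overlap (-1.77 ± 0.44, adjusted p = 0.00694). It ranged over 88 to 315 CPM in WT CD4+ nodes and 19.2 to 137 CPM in WT CD4+ tumors, over 112 to 464 CPM and 33.1 to 431 CPM in Yap-cKO CD4+ cells, and over 128 to 437 CPM and 118 to 277 CPM in Yap-cKO CD8+ cells, and did not pass in these 3, except in WT CD4+ cells without TIL replicate 4 (-1.65, adjusted p = 0.0222).

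**Figure D4:**
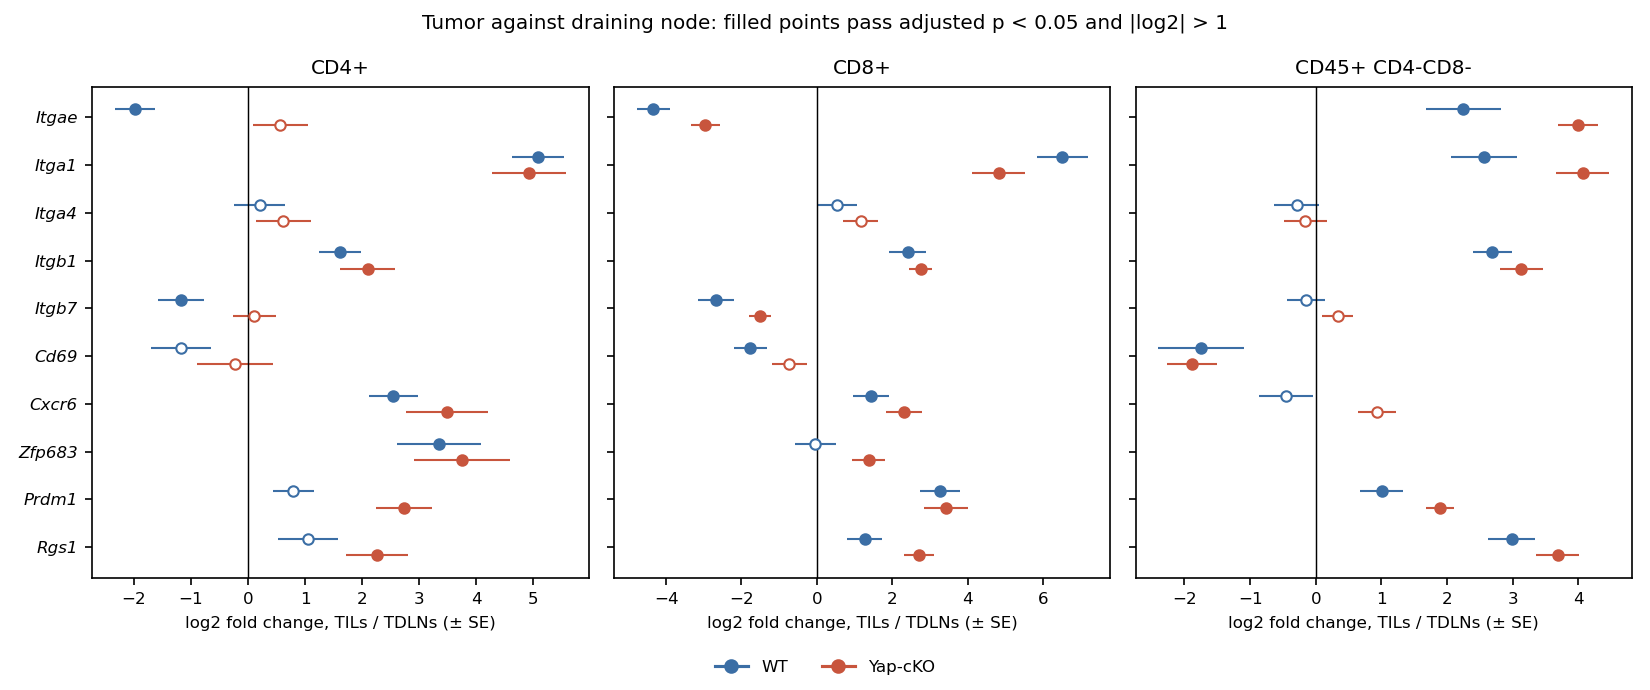
Log2 fold change ± SE of TILs against TDLNs for the 10 genes in CD4+, CD8+ and CD45+ CD4-CD8- cells, with 4 libraries per group, WT in blue and Yap-cKO in red; filled points pass an adjusted p under 0.05 with an absolute log2 fold change over 1. Itga1 is highest in every T cell panel (4.82 to 6.51), and Itgae is lowest in CD8+ cells (-4.33 and -2.95).

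Counted together, 6 of 10 members passed between tumor and node in WT CD4+ cells, where 37.3% of 14009 genes did. Of these 4 were higher and 2 lower, against 22.9% and 14.4% of all genes. In WT CD8+ cells 8 of 10 passed, where 37.7% of 13894 genes did, with 5 higher and 3 lower against 22.5% and 15.2%. In Yap-cKO CD4+ cells 6 of 10 passed against 18.5% of 13565 genes, all of them higher (of genes, 12.4% rose and 6.07% fell). In Yap-cKO CD8+ cells 8 of 10 passed against 15.9% of 13347 genes, with 6 higher and 2 lower against 10.9% and 5.01%. Tumor and node libraries did not overlap for 6, 6, 4 and 8 of the 10 members in that order, nor for 45%, 41.3%, 26.4% and 23% of all genes. The median member differed by 0.92 in WT CD4+, 0.91 in WT CD8+, 2.18 in Yap-cKO CD4+ and 1.84 in Yap-cKO CD8+ cells on the log2 scale, where the median of all tested genes was between -0.04 and 0.02. The 4 T cell comparisons use some of the same libraries as the comparisons between genotypes and between lineages below. Scaling the libraries on the 15 T lineage genes raised the median of all genes to 1.57 and 1.59 in WT CD4+ and CD8+ cells and to 0.22 and 0.41 in Yap-cKO cells. Under it the WT CD4+ falls of Itgae and Itgb7 were no longer called (-0.69, adjusted p = 0.148, and 0.15, adjusted p = 0.718, now higher) and neither was the WT CD8+ fall of Cd69 (-0.36, adjusted p = 0.568). The CD8+ falls of Itgae and Itgb7 passed under it in both genotypes (-3.00, adjusted p = 0.000104 and -1.28, adjusted p = 0.00721 in WT), as did every rise called above. Under that scaling 56.8% and 58.6% of all genes rose in WT CD4+ and CD8+ cells, and 17.3% and 15.9% in Yap-cKO cells. A kept rise in WT cells therefore says little about the members. Of all genes 0.842% and 0.799% fell in WT CD4+ and CD8+ cells, and 3% and 1.53% in Yap-cKO cells. NK cell marker sums were 65.5 to 213 CPM in WT CD8+ tumors and 34.8 to 94.0 CPM in WT CD8+ nodes, and 247 to 391 CPM and 29.6 to 60.8 CPM in Yap-cKO CD8+ cells. In CD4+ cells they were 12.7 to 33.6 CPM and 3.62 to 14.6 CPM in WT and 18.5 to 53.4 CPM and 5.58 to 9.44 CPM in Yap-cKO mice. The part of NK cells in the members' differences was not tested.

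Among CD45+ CD4-CD8- cells the pattern of Itgae was turned round: it was low in nodes and higher in tumors. WT libraries held 8.07, 9.17, 16.8 and 4.38 CPM in nodes and 21.4, 104, 42.8 and 19.2 CPM in tumors (2.25 ± 0.57, adjusted p = 0.00793), and Yap-cKO libraries 6.99, 3.63, 7.11 and 3.49 CPM and 115, 72.4, 91 and 75.4 CPM (3.99 ± 0.30, adjusted p = 1.44e-06). Neither genotype overlapped between tissues. CD103 is also carried by a class of dendritic cells, and the summed dendritic cell markers were 63.7 to 131 CPM in WT nodes and 350.2 to 1114 CPM in WT tumors; their part in the difference was not tested. Itga1 rose from a range of 0.978 to 5.71 CPM to one of 13.7 to 20.0 CPM in WT (2.56 ± 0.50, adjusted p = 0.00191) and from a range of 0.481 to 2.15 CPM to one of 16.9 to 24.4 CPM in Yap-cKO mice (4.07 ± 0.41, adjusted p = 9.89e-06). Itgb1 rose from a range of 47.7 to 124 CPM to one of 454 to 565 CPM in WT (2.69 ± 0.30, adjusted p = 8.31e-05) and from a range of 40.9 to 112 CPM to one of 547 to 744 CPM in Yap-cKO mice (3.13 ± 0.33, adjusted p = 1.36e-05).

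Rgs1 showed the same rise, from a range of 13.8 to 40.1 CPM to one of 148 to 261 CPM in WT (2.98 ± 0.36, adjusted p = 0.000118) and from a range of 17 to 34.2 CPM to one of 198 to 436 CPM in Yap-cKO mice (3.68 ± 0.33, adjusted p = 4.27e-06). Prdm1 rose from a range of 10.7 to 17.7 CPM to one of 49.6 to 67.3 CPM in Yap-cKO mice (1.89 ± 0.21, adjusted p = 2.36e-05). In WT mice it rose from a range of 8.91 to 18.8 CPM to one of 20.5 to 45.4 CPM (1.01 ± 0.33, adjusted p = 0.0258), a call lost without WT CD45+ CD4-CD8- TDLN replicate 1 (0.80, adjusted p = 0.0598) or TIL replicate 3 (0.92, adjusted p = 0.0698) or 4 (0.82, adjusted p = 0.0867). Cd69 fell from 333, 398, 165 and 151 CPM to 52.9, 86.4, 110.2 and 44.2 CPM in Yap-cKO mice (-1.89 ± 0.38, adjusted p = 0.00153). The WT fall (-1.75 ± 0.65, adjusted p = 0.0459) rested on WT TDLN replicate 2 at 733 CPM, without which it was -0.68 (adjusted p = 0.195), and it was also lost without any of the 4 WT TIL libraries (adjusted p = 0.0716 to 0.126). Itga4, Itgb7 and Cxcr6 passed in neither genotype, except Cxcr6 in Yap-cKO mice without TIL replicate 1 (1.21, adjusted p = 0.00167). In all, 6 of 9 tested members passed in WT (5 higher and 1 lower) and 6 of 9 in Yap-cKO mice (5 higher and 1 lower), against 39.9% and 40.3% of all tested genes (13898 and 13734). Of all genes 21.9% were higher and 18% lower in WT, and 21.8% higher and 18.5% lower in Yap-cKO mice. Libraries did not overlap for 5 members in WT and 7 in Yap-cKO mice, nor for 47.9% and 51.6% of genes. The turnover from B cell to macrophage markers lies beside every one of them.

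Between genotypes, CD8+ TILs of Yap-cKO mice held more of 4 members than WT CD8+ TILs. Itgae was at 3.82 to 17.7 CPM in WT libraries and 18.2 to 68.4 CPM in Yap-cKO ones (1.90 ± 0.51, adjusted p = 0.0387), the highest WT and the lowest Yap-cKO library lying side by side. Itga4 was at 77.8, 96.6, 139 and 65.6 CPM in WT libraries and 189, 274, 179.9 and 239.5 CPM in Yap-cKO ones (1.26 ± 0.28, adjusted p = 0.0234). Cd69 was at 27, 61.7, 56.6 and 76.4 CPM in WT libraries and 277, 158, 118 and 119 CPM in Yap-cKO ones (1.63 ± 0.36, adjusted p = 0.0222). Rgs1 was at 63.6 to 132 CPM in WT libraries and 135 to 317 CPM in Yap-cKO ones (1.49 ± 0.33, adjusted p = 0.0221). The genotypes did not overlap in these 4, nor in Zfp683 (1.15 ± 0.43, adjusted p = 0.0916). Of all 14121 genes tested, 12.2% were called, 3.03% higher and 9.14% lower, and 20.6% did not overlap between the groups. The other log2 fold changes were -0.79 for Itga1, 0.42 for Itgb1, 0.96 for Itgb7, 1.18 for Cxcr6 and 0.75 for Prdm1, none of them called.

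In CD4+ TILs, 2 of 10 members were higher in Yap-cKO mice, where 8.02% of 14205 genes were called, 1.36% higher and 6.66% lower. Itgae was at 7.49 to 26.5 CPM in WT libraries and 40.8 to 140.4 CPM in Yap-cKO ones, without overlap (2.10 ± 0.47, adjusted p = 0.0234). Prdm1 was at 11.9, 26.5, 23.1 and 30.4 CPM and 81.1, 103, 27.9 and 61.9 CPM (1.67 ± 0.43, adjusted p = 0.0393), overlapping at Yap-cKO replicate 3. Itgb7 did not overlap either (1.13 ± 0.45, adjusted p = 0.151), in a comparison where 17.1% of genes did not. The remaining members were at -1.15 (Itga1), 1.24 (Itga4), 0.36 (Itgb1), 1.62 (Cd69), 1.06 (Cxcr6), 0.88 (Zfp683) and 1.16 (Rgs1) on the log2 scale.

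These genotype differences depended on the scaling and on single libraries. With libraries scaled on the T lineage genes, which moved the median log2 fold change of all genes in CD4+ TILs from 0.14 to -1.11 and in CD8+ TILs from 0.08 to -1.07, edgeR called 0 members higher in either population, where it called 24.7% and 38.9% of all genes. Itgae was then 1.26 (adjusted p = 0.0922) in CD4+ and 1.06 (adjusted p = 0.0873) in CD8+ TILs. Itga1 was the only member called, and it was lower, at -2.39 (adjusted p = 0.0228) and -2.20 (adjusted p = 0.0265). Melanoma, endothelial, and fibroblast and pericyte marker sums were all lower in the Yap-cKO libraries of both populations. In CD8+ TILs the macrophage and monocyte sum was higher (757 to 2019 CPM against 303 to 713 CPM). The NK cell sum, over 6 genes some of which CD8+ T cells also make, was higher there as well (247 to 391 CPM against 65.5 to 213 CPM, two-sided p = 0.0286 by an exact permutation test), and in CD4+ TILs it overlapped (18.5 to 53.4 CPM against 12.7 to 33.6 CPM). With a covariate of the Y-linked genes edgeR called 0 members in either population. With a covariate of the tumor and stroma markers it called 0 members in CD8+ TILs, but in CD4+ TILs it called 3 in the opposite direction, lower in Yap-cKO mice: Itgb1 (-2.70, adjusted p = 0.0281), Cd69 (-3.77, adjusted p = 0.0331) and Rgs1 (-3.53, adjusted p = 0.0281). Melanoma, endothelial, and fibroblast and pericyte sums did not overlap between genotypes in either population, and the Y-linked sum was high only in WT replicates 1 to 3. These fits therefore cannot separate a covariate from genotype, and the part of the covariates in the differences was not tested. Leaving out Yap-cKO CD4+ TIL replicate 3, the library with the most melanoma signal of its group (2782 CPM) and also the most T lineage signal (12786 CPM), raised the CD4+ count to 6, namely Itgae, Itga4, Cd69, Cxcr6, Prdm1 and Rgs1. Leaving out WT CD4+ TIL replicate 1, 2 or 4 or Yap-cKO CD4+ TIL replicate 1, 2 or 4 lowered it to 0, and without WT replicate 3 it was 1. Calls over all genes moved as well, from 1139 with every library to 3236 without Yap-cKO CD4+ TIL replicate 3. They were 332 to 674 in the fits that called 0 members, and 1097 without WT replicate 3. In CD8+ TILs the count was 4 without WT replicate 3 or Yap-cKO replicate 3, 3 without Yap-cKO replicate 1, 1 without replicate 4 of either genotype and 0 without replicate 2 of either or WT replicate 1. Calls over all genes were 1719 with every library. They were 2582 without WT replicate 3, 2147 without Yap-cKO replicate 3 and 942 without Yap-cKO replicate 1. Without replicate 4 they were 702 (WT) and 717 (Yap-cKO), without replicate 2 351 (WT) and 1 (Yap-cKO), and without WT replicate 1 322.

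**Figure D5:**
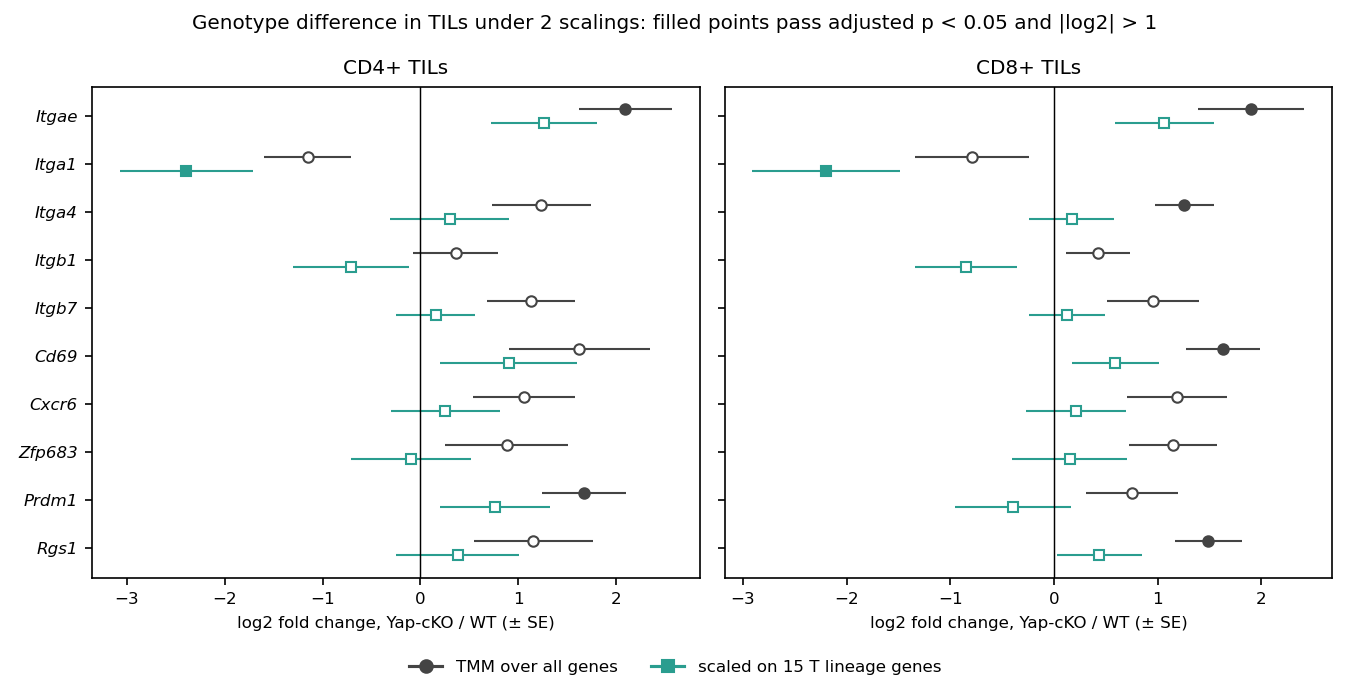
Log2 fold change ± SE of Yap-cKO against WT in CD4+ and CD8+ TILs for the 10 genes (4 libraries per group), with TMM scaling over all genes (circles) and with scaling on 15 T lineage genes (squares); filled symbols pass an adjusted p under 0.05 with an absolute log2 fold change over 1. Every square lies to the left of its circle, and under the second scaling Itga1 alone is called, at -2.39 and -2.20.

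Between genotypes in the nodes, 0 members were called. The log2 fold changes lay between -0.54 and 0.79 for 8 tested members in CD4+ TDLNs, between -0.26 and 0.59 for 9 in CD8+ TDLNs and between -1.25 and 0.31 for 9 in CD45+ CD4-CD8- TDLNs. edgeR called 0 members, 0 had an unadjusted p under 0.05, and DESeq2 called 0. Of all genes, 0.0462%, 0.0158% and 0.0596% were called. In CD45+ CD4-CD8- TILs 0 of 9 members were called (3 had an unadjusted p under 0.05 and DESeq2 called 0), with log2 fold changes from -0.23 to 0.89, in a comparison that called 0.991% of 13628 genes. Prdm1 was the member whose libraries did not overlap there, at 20.5, 26.2, 40.0 and 45.4 CPM in WT libraries and 50.9, 57.1, 67.3 and 49.6 CPM in Yap-cKO mice (adjusted p = 0.161); 11.5% of genes did not overlap.

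The lineages were compared within each tissue, where same-numbered CD4+ and CD8+ libraries deviated from their group means together in WT TILs, WT TDLNs and Yap-cKO TILs, so the fit with the replicate number as a block is given beside the first. In WT TDLNs, CD8+ cells held more Itgae than CD4+ cells (1.42 ± 0.23, adjusted p = 0.00624, and 1.42, adjusted p = 0.000366 with the block) and less Prdm1 (-2.55 ± 0.46, adjusted p = 0.0106, and -2.63, adjusted p = 0.000192), 2 of 9 tested members, where 3.76% of 12785 genes were called. With the block 4 of 9 were called, against 6.97% of genes, Cxcr6 (1.33, adjusted p = 0.00949) and Zfp683 (2.38, adjusted p = 0.0267) joining as higher in CD8+ cells. Under the T lineage scaling Prdm1 was -2.40 (adjusted p = 0.0567). In Yap-cKO TDLNs Itgae was higher in CD8+ cells as well (2.48 ± 0.40, adjusted p = 0.00826), the only call among 9 members, where 2.49% of 12954 genes were called. DESeq2 called 2 members there, and leaving out Yap-cKO CD4+ TDLN replicate 2 added Cxcr6 (2.79, adjusted p = 0.0128).

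In the tumors Itgae was not called between the lineages. Itgae was at 9.76 ± 6.02 CPM in CD8+ and 19.1 ± 8.47 CPM in CD4+ WT TILs (SD, n = 4), and at 36.2 ± 22.2 CPM and 76.3 ± 44.1 CPM in Yap-cKO TILs. In WT TILs edgeR called 0 of 10 members and 0.119% of 14266 genes (1 member had an unadjusted p under 0.05, and DESeq2 called 0). With the block it called 1 (0.722% of genes), Itgb7, lower in CD8+ cells (-1.46, adjusted p = 0.0291). In Yap-cKO TILs Itgb7 was lower in CD8+ cells in both fits (-1.50 ± 0.33, adjusted p = 0.0409, and -1.49, adjusted p = 0.0134 with the block), where 2.49% of 13902 genes were called and 4.4% with the block. Its libraries did not overlap, at 549, 245, 404 and 371 CPM in CD8+ and 1126, 844, 1738 and 788 CPM in CD4+ cells. Without the block the call was kept only when Yap-cKO CD4+ TIL replicate 3, the highest library, was left out, and the other 7 fits gave -1.33 to -1.68 (adjusted p up to 0.131).

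In the order of the 12 groups by mean CPM, few neighbours were separate. For Itga4, Itgb7, Zfp683, Prdm1 and Rgs1, 0 of 11 neighbouring groups differed beyond their ranges. For the other 5 members 1 of 11 did: between the CD8+ TDLN groups and the rest for Itgae, between WT CD45+ CD4-CD8- TILs and Yap-cKO CD4+ TILs for Itga1, between WT CD45+ CD4-CD8- TILs and WT CD4+ TDLNs for Itgb1, above the CD45+ CD4-CD8- groups for Cxcr6, and between Yap-cKO CD8+ TILs and WT CD45+ CD4-CD8- TILs for Cd69. Across the 12 group means of log2(CPM + 0.5), the genes most like Itgae among 12317 were Fosl2 (r = 0.96), Plec and Sh3bp1 (both r = 0.95). Those most like Itga1 were Ednrb, Mlkl and Cd63 (all r = 0.98), of which Ednrb is a melanocyte gene. Cxcr6 and Zfp683 were among the 3 genes most like each other (r = 0.96), with Perp first for Cxcr6 (r = 0.97) and Hopx second for Zfp683 (r = 0.94). The 3 most like the remaining members were Cwf19l2, Nsrp1 and Nfat5 for Itga4 (r = 0.94, 0.89 and 0.89), Rwdd1, Gm14434 and Gm6710 for Itgb1 (r = 0.97 each), Tnip1, Tmem63a and Slc9a3r1 for Itgb7 (r = 0.95, 0.94 and 0.94), Fam107b, Acot4 and Olfr635 for Cd69 (r = 0.96, 0.96 and 0.95), Eea1, Mdfic and Itgav for Prdm1 (r = 0.97, 0.96 and 0.96), and Fam129a, Car5b and Slc25a24 for Rgs1 (r = 0.97, 0.97 and 0.96). The 12 points share the depth, tissue and contaminating cells of their libraries.

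Genes of recirculation and egress were lower in the tumors, by an amount that the scaling changed. Of the 15 on the list, 11 of 14 tested fell and 0 rose in WT CD4+ cells, 14 of 15 fell and 1 rose in WT CD8+ cells, 9 of 14 fell in Yap-cKO CD4+ cells, and 10 of 15 fell and 1 rose in Yap-cKO CD8+ cells. Of all genes 14.4%, 15.2%, 6.07% and 5.01% fell in that order. With libraries scaled on the T lineage genes, 4, 4, 9 and 6 of the listed genes fell, where 0.842%, 0.799%, 3% and 1.53% of all genes did. The median of the list was -2.08 in WT CD4+, -2.17 in WT CD8+, -1.98 in Yap-cKO CD4+ and -1.23 in Yap-cKO CD8+ cells, and -0.79, -0.84, -1.76 and -0.83 under that scaling. Ccr7, which guides cells into nodes, fell in WT CD4+ (-3.91 ± 0.46, adjusted p = 3.31e-05), WT CD8+ (-4.08 ± 0.53, adjusted p = 0.000123) and Yap-cKO CD4+ cells (-3.40 ± 0.37, adjusted p = 0.000372). The gene that rose in CD8+ cells was S1pr5, a receptor of effector and NK cells (4.06 ± 0.80, adjusted p = 0.00176 in WT, named after its value was seen, and 5.77 ± 0.68, adjusted p = 0.000294 in Yap-cKO mice).

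Of 19 further residency-associated genes, 7 rose and 3 fell in WT CD4+ cells, 9 rose and 3 fell in WT CD8+ cells, 7 rose in Yap-cKO CD4+ and 11 rose in Yap-cKO CD8+ cells. Of all genes 22.9%, 22.5%, 12.4% and 10.9% rose in that order, and 14.4%, 15.2%, 6.07% and 5.01% fell. With libraries scaled on the T lineage genes, 12, 13, 9 and 11 of the 19 rose and 0 fell, where 56.8%, 58.6%, 17.3% and 15.9% of all genes rose. The median log2 fold change was 0.35, 0.78, 1.03 and 1.50 in that order, and 1.86, 2.30, 1.39 and 1.90 under that scaling. The granule protease gene Gzmb rose in WT CD8+ (5.23 ± 0.47, adjusted p = 1.1e-05) and Yap-cKO CD8+ cells (5.61 ± 0.39, adjusted p = 1.96e-05). The transcription factor gene Bhlhe40 rose in them as well (2.57 ± 0.31, adjusted p = 6.98e-05 and 3.24 ± 0.36, adjusted p = 0.000212). Between genotypes, 1.36% of all genes were called higher and 6.66% lower in CD4+ TILs, and 3.03% and 9.14% in CD8+ TILs. Of the 19, 1 (Isg20) was called higher and 1 (Hpgds) lower in CD4+ TILs, with a list median of 1.11. For CD8+ TILs edgeR called 0 of them, with a list median of 0.86. With T lineage scaling these medians were 0.07 and -0.09, Isg20 was at 0.097 (adjusted p = 0.889), and 0 of the 19 were called higher in either population. Of the 15 recirculation and egress genes, 0 were called in CD4+ TILs (median 0.23) and 3 were called higher in CD8+ TILs (median 0.99): Il7r (1.87 ± 0.43, adjusted p = 0.0245), Ripor2 (1.26 ± 0.33, adjusted p = 0.0361) and Cmah (1.09 ± 0.31, adjusted p = 0.0434). With T lineage scaling 0 of them were called and the medians were -0.69 and -0.05.

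Of the 21 other integrin subunits, 9 rose and 2 fell among 17 tested in WT CD4+ cells and 10 rose and 2 fell among 17 in WT CD8+ cells. In Yap-cKO mice 5 rose and 1 fell of 17 in CD4+ and 7 rose of 16 in CD8+ cells. Of all genes, 22.9% rose and 14.4% fell in WT CD4+ and 22.5% and 15.2% in WT CD8+ cells. In Yap-cKO mice 12.4% rose and 6.07% fell in CD4+ and 10.9% and 5.01% in CD8+ cells. The fibronectin receptor chain Itga5 rose in WT CD8+ TILs (3.82 ± 0.51, adjusted p = 0.000135), and so did Itga9 (5.36 ± 0.62, adjusted p = 5.45e-05). Itga5 was lower in Yap-cKO than in WT TILs in CD4+ (-2.43 ± 0.64, adjusted p = 0.0407) and CD8+ cells (-2.94 ± 0.54, adjusted p = 0.018), and Itga9 likewise (-2.65 ± 0.60, adjusted p = 0.0234 and -2.94 ± 0.66, adjusted p = 0.0238), beside the lower melanoma and fibroblast and pericyte marker sums of the Yap-cKO libraries. The myeloid chains Itgam (4.31 ± 0.45, adjusted p = 0.000145) and Itgax (3.93 ± 0.44, adjusted p = 0.00022) rose in Yap-cKO CD8+ TILs, where the macrophage and monocyte sum was 757 to 2019 CPM against 13.6 to 28.8 CPM in nodes. Of 13 ligands, adaptors and activators tested, 3, 2, 3 and 4 rose and 2, 4, 0 and 1 fell in WT CD4+, WT CD8+, Yap-cKO CD4+ and Yap-cKO CD8+ cells. The counts in WT CD4+ cells are near the shares of all genes given above. Fn1 (fibronectin) and Fermt2 (kindlin-2) rose in all 4, and Fermt2 was lower in Yap-cKO TILs than in WT in CD4+ (-3.02 ± 0.59, adjusted p = 0.0142) and CD8+ cells (-3.38 ± 0.74, adjusted p = 0.0218). The part of other cell types in the values of the 10 members was not tested.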

How the data were processed

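Sorted cells were lysed in TRIzol LS, and libraries were made with SMART-Seq v4, which amplifies full-length cDNA and does not mark strand, and sequenced as read pairs on an Illumina HiSeq. Per the labels and the study's methods, the authors checked reads with FastQC, trimmed them with Trimmomatic and quantified them with Salmon 0.9.1 against the mouse transcriptome (mm10, GRCm38). The deposited values are expected counts, TPM and effective lengths per transcript, 1 set for each of 48 libraries. TPM as deposited by the authors sum to a fixed total in each library and were used here only for comparisons between genes. The part of amplification in the spread between libraries is not known. The ± SE and ± SD values include that spread, while the floors cover counting error only.

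Expected counts were summed over transcripts to genes (111787 of 112092 transcripts matched, leaving 0.0488% to 0.18% of counts unmatched) and rounded. edgeR 4.0.16 (R 4.3.3) was fitted to the 8 libraries of each comparison (16 for an interaction) with TMM scaling, leaving out genes that did not reach 10 counts in 4 of them. The quasi-likelihood p was adjusted by Benjamini-Hochberg over all genes tested, and calls needed an adjusted p under 0.05 together with a log2 fold change beyond 1 in either direction. All members that passed the count filter were tested in every comparison. Each is named between tumor and node and between genotypes in T cell TILs. Elsewhere only some members or a range are given. Of the related lists, at most the 3 called genes with the smallest p were named, and the likeness to other genes used log2(CPM + 0.5). Marker sums were compared by an exact two-sided permutation test. The fit was tested on simulated counts with known changes before use. No pair of replicates held the same values. The members and lists were chosen with earlier results of these data known.

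Alternatives were DESeq2 1.42.0, no count filter, offsets for transcript length, the replicate number as a block, adjusted p alone, 1 fit over all 48 libraries, each library left out in turn, scaling on 15 T lineage genes, covariates of the Y-linked and of the tumor and stroma markers, and a mouse term in the interactions. The labels give replicate numbers but do not say that a number marks 1 mouse. Same-numbered CD4+ and CD8+ libraries deviated together in WT TILs (mean r = 0.394, lowest 0.112), WT TDLNs (0.568, lowest 0.384) and Yap-cKO TILs (0.456, lowest 0.155), so the pairing rests on the data there, and the blocked values stand beside those results. The study's methods describe sorting T cell TILs tumor by tumor and do not say whether cells or RNA were pooled afterwards. The p-values therefore measure the spread between these libraries.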

Additional observations from a re-analysis of the deposited data

Results flagged for a closer look

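Among 119 combinations of a member and a group of 4 libraries, 15 had 1 library far from the other 3 (a gap beyond Dixon's critical value). Chance gives about 1 in 20 for independent normal values. These gaps were taken on CPM without a log, and the combinations share libraries. That rate therefore does not apply here, and the 15 are a description.

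Of these, 5 came from replicate 4 of the WT T cell nodes: Itga4 at 132 CPM in CD4+ and 173 CPM in CD8+ TDLNs, Itgb1 at 379 CPM in CD4+ TDLNs, and Rgs1 at 136.9 CPM in CD4+ and 81.7 CPM in CD8+ TDLNs. In Yap-cKO CD4+ TDLN replicate 2, Itgb1 was at 316 CPM and Cxcr6 at 86.8 CPM, both above the other 3 libraries. In tumors, Itgb1 stood out at 943 CPM in WT CD4+ TIL replicate 4 and at 1265 CPM in Yap-cKO CD8+ TIL replicate 1, and Rgs1 at 132 CPM in WT CD8+ TIL replicate 3. Among CD45+ CD4-CD8- cells the libraries that stood apart were WT TDLN replicate 2 for Itgb7 (314 CPM), Yap-cKO TDLN replicate 3 for Itgb7 (510.1 CPM), Yap-cKO TDLN replicate 4 for Cxcr6 (4.39 CPM), Yap-cKO TIL replicate 1 for Cxcr6 (5.94 CPM) and WT TDLN replicate 1 for Prdm1 (8.91 CPM).

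The genotype effect on Itgae differed between tumor and node in CD4+ cells, by 2.62 on the log2 scale (edgeR interaction, adjusted p = 0.0479). That call was lost in most fits with a single library left out (edgeR adjusted p up to 0.106). It was also lost with length offsets, the replicate block or T lineage scaling.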

How the results depend on the processing

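Of 51 calls on members, 37 were kept whichever library was left out, and DESeq2 kept all 51. Adjusted p alone, without the fold threshold, keeps every one of these calls by definition. The block lost 10 of them, the T lineage scaling 10 of 39 (with 1 more reversed), the 48-library fit 5, the length offsets 4 and the fit without a count filter 1. The Y-linked covariate lost 6 of 6, and the marker covariate lost 4 and reversed 2 of 6. Both covariates ran with genotype, so those fits cannot separate them from it. The cause was not tested.

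The number of members called in CD4+ TILs (2) was 1 with length offsets and 0 with the replicate block or the Y-linked covariate. It was 0 to 6 with 1 library left out. With T lineage scaling 0 of these calls were kept, and Itga1 alone was called, lower in Yap-cKO mice. With the marker covariate the number was 3, all of them other members in the opposite direction. In CD8+ TILs (4) the number was 5 with DESeq2 and 2 in the 48-library fit. It was 0 with the replicate block, the Y-linked covariate or the marker covariate, and 0 to 4 with 1 library left out. With T lineage scaling 0 of the 4 calls were kept, and Itga1 alone was called, again lower. Calls over all genes moved too, from 1139 in CD4+ and 1719 in CD8+ TILs to 767 and 1 with the block. They were 3510 and 5500 with T lineage scaling, and 332 to 3236 and 1 to 2582 with 1 library left out. A count of 0 members with the block in CD8+ TILs therefore says nothing particular to them. Between lineages the number of members was 1 with the block in WT TILs (0). In WT TDLNs (2) it was 4 with DESeq2 or the block and 1 in the 48-library fit or with T lineage scaling. In Yap-cKO TDLNs (1) it was 2 with DESeq2 or the 48-library fit, 3 without a count filter or with the block, and 1 to 2 with 1 library left out. In Yap-cKO TILs (1) it was 0 to 1 with 1 library left out. The CD4+ interaction (1) gave 2 with DESeq2, 0 with length offsets, the block or T lineage scaling, and 0 to 2 with 1 library left out. Over all genes it called 205, and 842 with DESeq2, 89 with the block and 1912 with T lineage scaling. Between lineages, calls over all genes were 17 in WT TILs (103 with the block), 481 in WT TDLNs (891) and 323 in Yap-cKO TDLNs (427). DESeq2 called 721 in WT TDLNs and 575 in Yap-cKO TDLNs. Same-numbered libraries of different genotypes did not deviate together in every pair. Between tissues the correlations were 0.0186 to 0.452 in WT CD4+ cells and included negative values in the other cells. The Y-linked sum was high in WT replicates 1 to 3 and low in WT replicate 4 in both tissues. Whether same-numbered TIL and TDLN libraries share a mouse is therefore not known, and the tissue comparisons were fitted without pairing, with the block as an alternative.

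Directions turned, on the log2 scale, in these cases. With the marker covariate in CD4+ TILs, Itgb1 was -2.70, Cd69 -3.77 and Rgs1 -3.53, which were called lower, and Itga4 was -2.32, Cxcr6 -2.29 and Prdm1 -0.83, which were not. In CD8+ TILs Itgae was -0.044, Itga1 1.19 and Itgb7 -0.26. With T lineage scaling, Itgb1 was -0.71 and Zfp683 -0.095 in CD4+ TILs, Itgb1 -0.85 and Prdm1 -0.40 in CD8+ TILs, and Itgb7 0.15 between WT CD4+ TILs and TDLNs. With the Y-linked covariate, Itgb1 was -0.12 in CD4+ and Itga1 0.88 in CD8+ TILs. Depth limits only the lowest members: 3 counts are 0.124 to 0.237 CPM, and Zfp683 in CD45+ CD4-CD8- cells and Itga1 in node T cells lie near it.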
